A study of Mus musculus with 6 samples.

Results

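The genes described here encode signals that hold back sodium uptake in the collecting duct, the last part of the kidney tubule. They are 10 of the 24852 genes to which the counted transcripts could be matched. They were chosen by name for their role, but with earlier results of these data known. For endothelin they are endothelin-1 (Edn1), its converting enzyme (Ece1) and the endothelin receptors A and B (Ednra, Ednrb). The others are the nitric oxide synthases (Nos1, Nos2, Nos3), the ATP receptors P2Y2 and P2X4 (P2ry2, P2rx4) and the receptor of atrial natriuretic peptide (Npr1). All 10 had at least 1 counted read in the 6 libraries together, and 5 had enough reads to be tested among 10522 genes. The RNA was that of collecting duct cells from kidneys of C57BL/6J mice, all male and of 1 inbred strain, that ate a low-NaCl diet (0.01 to 0.02% sodium) or a high-NaCl diet (2.4% sodium) for 5 days, with 3 libraries per diet. Both groups carried no other treatment or genetic change in the labels, and the study had no group on an ordinary diet. The age of the mice, the way the cells were isolated and whether each library is a different mouse are not stated in the labels. The p-values therefore rest on differences between libraries of a diet, which can be technical.

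Endothelin-1 is made by collecting duct cells as a precursor, which endothelin-converting enzyme cuts to the active peptide. Acting on endothelin receptor B of the same or neighbouring cells, it raises nitric oxide, and nitric oxide raises cyclic GMP through soluble guanylate cyclase. ATP released into the urine acts on P2Y2 and P2X4, and natriuretic peptides from the heart act on Npr1, itself a guanylate cyclase. Each of these routes is known to lower the activity of the epithelial sodium channel, the channel that aldosterone raises when sodium intake is low. The comparison of the diets asks whether transcripts of these opposing signals differ between low and high sodium intake.

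At the threshold used throughout, an adjusted p under 0.05 over all genes tested, none of the 5 tested genes of the group rose or fell, against 3.4% of all tested genes (358, with 179 in each direction). Npr1 came nearest: it measured 25.4 ± 10.2 CPM on the low-NaCl and 15.01 ± 4.35 CPM on the high-NaCl diet (SD, n = 3), with an unadjusted p of 0.0379 and an adjusted p of 0.238 by edgeR. Around these genes, Arg2, Gch1, Dynll1 and Adora2b rose on the low-NaCl diet and Gchfr fell. None of these calls remained with sequencing lane as a term in the fit, and only the libraries numbered 1 share a lane between the diets. All of the calls but that of Arg2 also ended without some single libraries. Arg2 encodes an arginase, Gch1 and Gchfr the enzyme and regulator of a cofactor of nitric oxide synthases, Dynll1 a dynein light chain and Adora2b an adenosine receptor. CPM is the usual count scaled to library size, here with TMM factors between libraries, and log2 differences are low-NaCl minus high-NaCl throughout.

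The sequence of the second exon of Edn1 is shown because it holds the active peptide and because its bases are among those behind the Edn1 value. It lies on the plus strand at chr13:42303557-42303725 of GRCm38, the assembly also called mm10, and all of its 169 bases are coding. Capitals mark the 21 codons that follow the Lys-Arg cleavage site, which encode mature endothelin-1.
Edn1 exon 2: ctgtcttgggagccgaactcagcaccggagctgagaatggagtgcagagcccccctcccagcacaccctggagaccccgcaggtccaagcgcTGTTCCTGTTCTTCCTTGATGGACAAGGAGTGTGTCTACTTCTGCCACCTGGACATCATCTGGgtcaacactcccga
The 250 bases before the start of Npr1, the group's gene with the smallest p, and before the start of Gch1, which rose, are shown next, from the RefSeq promoter tables of GRCm38.p6. Both genes lie on the minus strand, so each line is the reverse complement of the plus strand. They span chr3:90465867-90466116 and chr14:47189414-47189663 and hold no annotated exon. Capitals mark CCAAT and GGGCGG on either strand, motifs searched after the values were seen, which occur in 33.8% and 32.7% of 32851 promoter windows of the same length.
Npr1 promoter: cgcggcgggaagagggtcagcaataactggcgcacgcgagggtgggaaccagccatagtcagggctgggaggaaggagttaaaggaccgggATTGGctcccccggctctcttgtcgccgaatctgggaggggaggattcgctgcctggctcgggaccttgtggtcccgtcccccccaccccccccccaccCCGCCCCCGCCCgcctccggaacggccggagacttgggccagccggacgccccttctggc
Gch1 promoter: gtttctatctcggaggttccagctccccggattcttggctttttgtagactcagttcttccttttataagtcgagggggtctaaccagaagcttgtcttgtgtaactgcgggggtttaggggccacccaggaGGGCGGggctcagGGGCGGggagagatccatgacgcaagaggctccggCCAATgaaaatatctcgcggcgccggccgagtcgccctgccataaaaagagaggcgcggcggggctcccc
Npr1 held CCAAT on the reverse strand 159 bases before its start and GGGCGG on the reverse strand 60 and 54 bases before it. Gch1 held GGGCGG 118 and 105 bases and CCAAT 70 bases before its start. The tables hold windows for 8 of the 10 genes, 12 windows in all, and not for Nos2 and Nos3. Of motifs listed for hormone-responsive promoters, searched on both strands with no overlap rule, TGANTCA of AP-1 was in 0 of these 12 windows and in 6.75% of all, and AGATAA of GATA factors in 0 and in 9.99%. The cAMP response element core TGACGT was in 1, that of Ednrb, and in 6.47% of all. The steroid response core ACANNNTGT, which reads alike on both strands, was in 1 window of Ece1 and in 5.84% of all. These matches describe letters and say nothing of binding.

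How much of each gene could be counted differed widely. The deposited counts are per UCSC transcript, and by the counting program's defaults a read in an exon shared by transcripts, or by overlapping genes on either strand, is not counted. The countable share is the share of a gene's exonic bases that lie in exons of only 1 transcript. It was 100% for Edn1, Nos2 and Npr1, which have 1 transcript each, 74.3% for Ednra, 71.2% for Nos3, 64.8% for P2rx4 and 57.7% for Ece1. For Nos1 it was 7.55% (381 bases), for P2ry2 4.88% (154 bases) and for Ednrb 1.16% (47 bases). The 3 genes under 10% are therefore close to unmeasured, whatever their level in the cells.

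**Figure D1:**
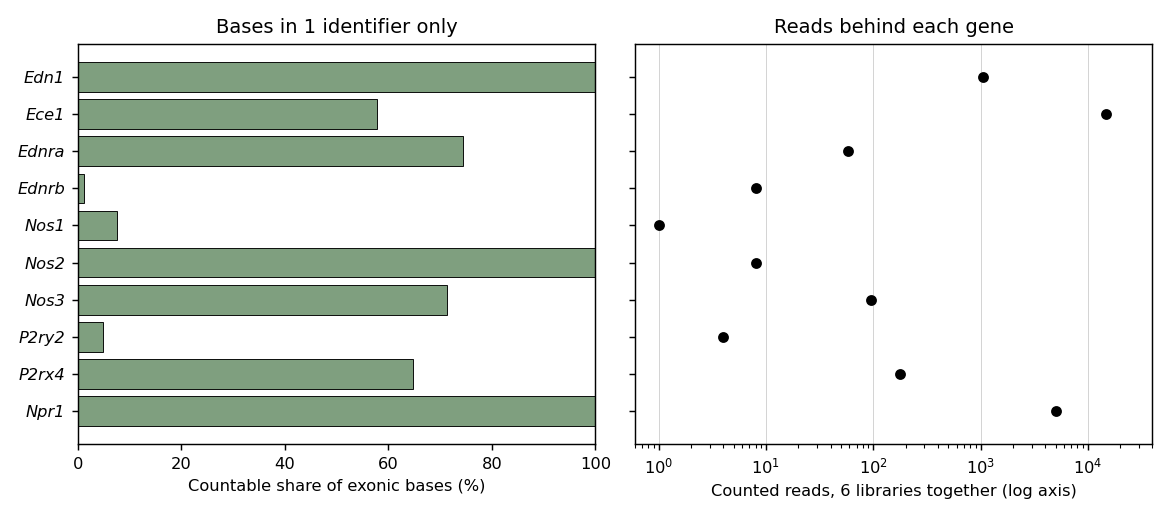
Left, bars give the share of exonic bases (%) that lie in 1 transcript only, for each of the 10 genes. Right, points give the counted reads of the 6 libraries together on a log axis, from 1 read for Nos1 to 14822 for Ece1. Edn1, Nos2 and Npr1 are fully countable, yet Nos2 has 8 reads, while Ednrb, Nos1 and P2ry2 have few countable bases and at most 8 reads.

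The countable bases also differ in kind. They were 78.0% coding in Npr1, 92.4% in Nos3, 86.0% in Nos2 and 25.9% in Edn1, but 9.27% in Ece1 and 7.14% in Ednra. In Ece1 all 14822 reads belonged to 1 transcript, with 2500 of its countable bases in exon 20. In P2rx4 all 178 reads belonged to a single-exon transcript whose 3676 countable bases (chr5:122707788-122711463) lie inside an intron of the 4 spliced transcripts of the gene. The spliced P2rx4 mRNA was thus not measured.

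Per kilobase of countable bases, and averaged over the 6 libraries, Ece1 had a level of 20.2 CPM, Npr1 4.98, Edn1 1.73, Nos3 0.131, Ednra 0.0566 and Nos2 0.00798. The converting enzyme stood far above the peptide it processes, with libraries from 19.0 to 22.1 CPM per kb against 0.858 to 2.48. Npr1 ranged from 2.50 to 8.28 CPM per kb, and its lowest library lay just above the highest of Edn1. Nos3 (0.0698 to 0.197 CPM per kb) and Ednra (0.0131 to 0.180) overlapped and are not ordered. The intronic P2rx4 transcript, at 0.194 CPM per kb, overlapped Nos3 too.

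**Figure D2:**
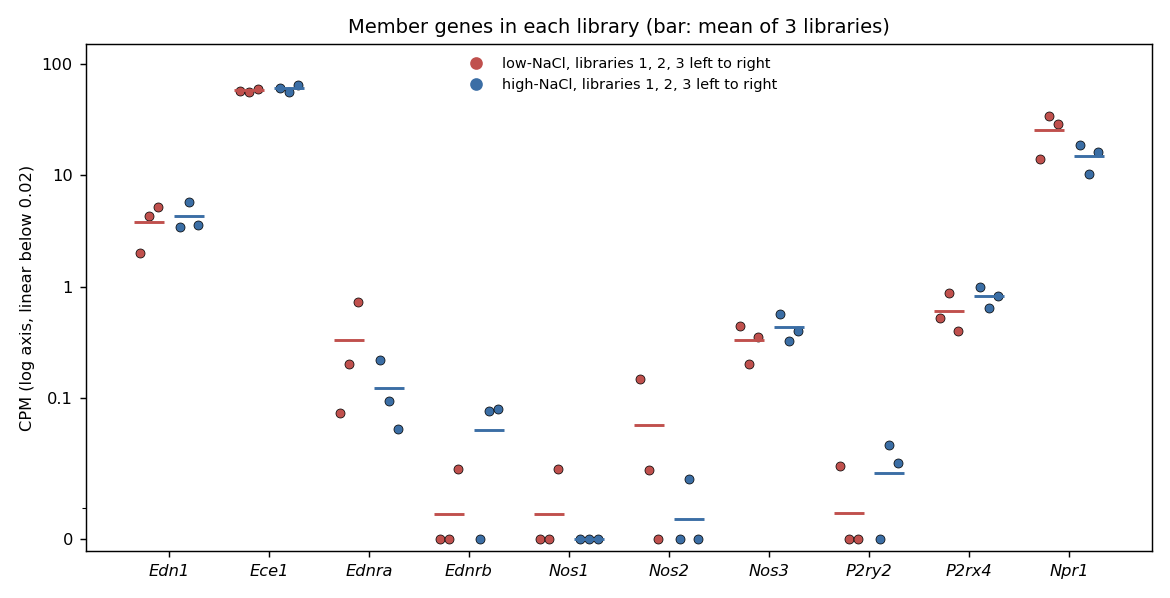
Each point is 1 library, with CPM on a log axis that is linear below 0.02, for low-NaCl (red) and high-NaCl (blue) libraries 1 to 3, and each bar is the mean of 3. Points of the 2 diets overlap in all 10 genes, Ece1 varies least, and Npr1 has 2 low-NaCl libraries (33.7 and 28.7) above all high-NaCl ones and 1 (14.01) below 2 of them.

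Edn1 (chromosome 13, 42301476 to 42307990, plus strand), the ligand, measured 2.01, 4.33 and 5.19 CPM in low-NaCl libraries 1 to 3 and 3.44, 5.81 and 3.59 CPM in high-NaCl libraries 1 to 3. These are 81, 190 and 220 reads against 125, 304 and 135. The low-NaCl libraries held both the lowest value and the second highest, so the diets overlapped. Means were 3.84 ± 1.64 and 4.28 ± 1.33 CPM, and the log2 difference was -0.16 ± 0.35 (SE, 95% interval -0.94 to 0.62, adjusted p = 0.850 by edgeR). The interval leaves room for a change of nearly 2-fold lower on the low-NaCl diet, and also for a rise of up to 0.62 in log2. The sign turned when low-NaCl library 1 (0.14) or high-NaCl library 2 (0.13) was left out.

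Ece1 (chromosome 4, 137862237 to 137965229, plus strand) was the most even gene of the group. It measured 57.2, 56.1 and 59.7 CPM on the low-NaCl and 60.5, 55.5 and 64.5 CPM on the high-NaCl diet, and the ranges overlapped. The log2 difference was -0.06 ± 0.12, with an interval of -0.33 to 0.21 (adjusted p = 0.836 by edgeR). Of the 5 tested genes it had the narrowest interval. With total-count scaling the difference was 0.04, of the opposite sign.

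Of the endothelin receptors, receptor A (Ednra) is known chiefly from vascular smooth muscle and receptor B (Ednrb) from collecting duct and endothelium. Ednra (chromosome 8, 77663031 to 77724464, minus strand) had 58 reads, at 0.0745, 0.205 and 0.731 CPM on the low-NaCl and 0.220, 0.0956 and 0.0532 CPM on the high-NaCl diet. A count of 3 corresponds to 0.0574 to 0.0824 CPM in these libraries, so 3 of the 6 values stand on 5 reads or fewer, and low-NaCl library 3 held 31 of the reads. That library also had the highest summed level of smooth muscle, pericyte and mesangial markers (54.6 CPM, against 15.9 and 35.3 CPM in the other low-NaCl libraries and 23.7 to 25.4 CPM in the high-NaCl ones). Most of that sum was 1 marker, Tagln (46.7 CPM). The markers did not move together: in that library Cnn1 (0.142 CPM) was at its highest, but Rgs5 (0.0236 CPM) and Des (0.425 CPM) were at their lowest. The part of such cells in the Ednra reads was not tested. Ednrb (chromosome 14, 103814625 to 103844402, minus strand) had 0, 0 and 1 reads against 0, 4 and 3, all on 47 noncoding bases, and neither receptor could be tested. In bulk RNA, here and below, fewer cells of a type and less RNA per cell cannot be told apart.

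Among the nitric oxide synthases, Nos1 is the neuronal and Nos3 the endothelial form, both also known from collecting duct, and Nos2 is the inducible form. Nos3 (chromosome 5, 24364810 to 24384474, plus strand) measured 0.447, 0.205 and 0.354 CPM on the low-NaCl and 0.577, 0.325 and 0.399 CPM on the high-NaCl diet, from 95 reads in all. The ranges overlapped, and the log2 difference was -0.36 ± 0.46 (interval -1.40 to 0.67, adjusted p = 0.732 by edgeR). Parts of Nos3 overlap 2 genes of the opposite strand, Atg9b by 294 bases and Gm15587 by 892, and reads there were not counted. Cdh5, an endothelial cadherin, measured 0.621, 0.387 and 0 CPM on the low-NaCl and 1.04, 0.746 and 1.25 CPM on the high-NaCl diet. Plvap, which encodes a protein of fenestrated endothelium, measured 1.12, 0.547 and 0.377 against 1.65, 1.74 and 1.81 CPM, with diets that did not overlap (log2 difference -1.35, adjusted p = 0.0958 by edgeR). Kdr measured 0.0497, 0.751 and 0.0236 against 0.687, 0.669 and 0.106 CPM, and Flt1 0.571, 0.159 and 0.0944 against 0.0825, 0.287 and 0.293 CPM. Of 12 endothelial markers 8 had reads, with a summed level of 18.9 to 25.4 CPM against 20.4 to 29.6, most of it Ehd3. Vwf and Emcn were at 0 with 32.3% and 65.9% of their bases countable, and Pecam1 and Tek had no countable base. The part of endothelial RNA in the Nos3 value was not tested.

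Nos2 (chromosome 11, 78920787 to 78960254, plus strand) was fully countable and had 6, 1 and 0 reads on the low-NaCl and 0, 1 and 0 on the high-NaCl diet. Its level was therefore at or near the limit of 3 counts in all libraries, and only low-NaCl library 1 exceeded it (0.149 CPM). Macrophages are a usual source of Nos2. Of 12 macrophage markers 7 had reads, summing to 0.422 to 0.778 CPM on the low-NaCl and 0.825 to 1.45 CPM on the high-NaCl diet, with Ptprc, Adgre1 and Cd68 at 0 and at most 19.2% countable, and Csf1r at 5 reads. Nos1 (chromosome 5, 117781032 to 117958840, plus strand) had 1 read, in low-NaCl library 3, on 381 countable bases of which 1 is coding. A low count there cannot show that Nos1 is absent.

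P2rx4 (chromosome 5, 122707544 to 122729738, plus strand) encodes an ATP-gated cation channel. Its intronic single-exon transcript measured 0.522, 0.888 and 0.401 CPM on the low-NaCl and 0.989, 0.650 and 0.825 CPM on the high-NaCl diet. The diets overlapped, and the log2 difference was -0.43 ± 0.39 (interval -1.32 to 0.45, adjusted p = 0.613 by edgeR). P2ry2 (chromosome 7, 100996568 to 101012866, minus strand), the receptor through which urinary ATP is known to inhibit the sodium channel, had 1, 0 and 0 reads against 0, 2 and 1, none on coding bases. For neither receptor do these counts describe the spliced message.

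Npr1 (chromosome 3, 90450591 to 90465866, minus strand) binds atrial natriuretic peptide and makes cyclic GMP. It measured 14.01, 33.7 and 28.7 CPM on the low-NaCl and 18.6, 10.2 and 16.3 CPM on the high-NaCl diet, from 5077 reads over its whole length. Low-NaCl libraries 2 and 3 were the 2 highest, and low-NaCl library 1 lay below high-NaCl libraries 1 and 3. The low-NaCl mean was 1.70-fold that of the high-NaCl diet, with a log2 difference of 0.76 ± 0.32 (interval 0.05 to 1.48) that did not pass (adjusted p = 0.238 by edgeR). It was the 1 gene of the 5 with an unadjusted p under 0.05, a level that 18.3% of all tested genes reached. No gene of the group had diets that did not overlap, against 23.9% of tested genes. Tested as single transcripts, 0 of the 5 with enough reads were called by edgeR, 1 with an unadjusted p under 0.05, against calls in 2.82% of 12192 transcripts. Each of the 5 genes had all its reads in 1 transcript, so that test used the same counts and adds nothing independent.

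The Npr1 value moved with single libraries and with lane. Without low-NaCl library 1 the log2 difference was 1.05 and passed (adjusted p = 0.0442 by edgeR), and without each of the other libraries it ranged from 0.51 to 0.95 and did not pass. Both libraries numbered 1 were sequenced in lane 1, the other low-NaCl libraries in lane 2 and the other high-NaCl ones in lane 3. Within lane 1 the log2 difference was -0.41, and with lane as a term, which rests the comparison on lane 1, it was also -0.41 (adjusted p = 0.672). The sum of smooth muscle, pericyte and mesangial markers was lowest in low-NaCl library 1 (15.9 CPM), whereas Npr1 was lowest in high-NaCl library 2 (10.2 CPM). Both were highest in low-NaCl libraries 2 and 3, but in a different order. The sum was 35.3 and 54.6 CPM there, and Npr1 33.7 and 28.7 CPM. The largest contributor to the sum was Tagln, at 8.97, 28.3 and 46.7 CPM against 15.1, 20.1 and 15.4, while Myh11 (13.7% countable) and Pdgfrb (0.35% countable) had no read. Acta2 measured 4.37, 2.73 and 5.26 against 4.42, 2.41 and 5.93 CPM, and Des, the marker of this list that was called, fell on the low-NaCl diet (log2 difference -1.84, adjusted p = 0.0430 by edgeR). The part of these cells in the Npr1 value was not tested.

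**Figure D3:**
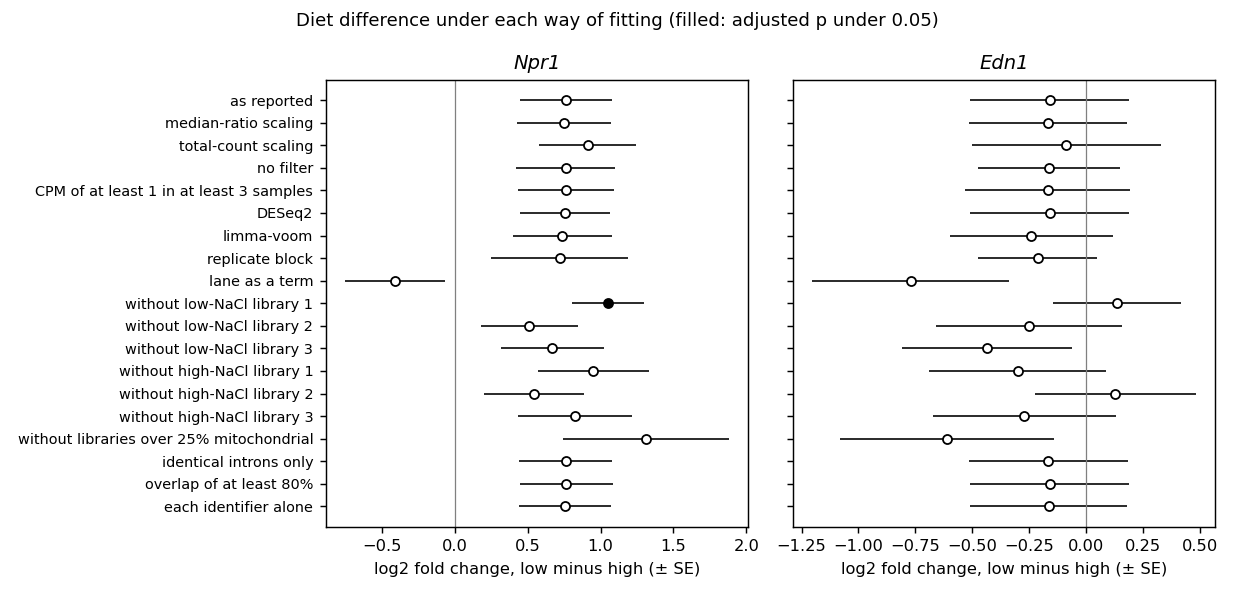
Points give the log2 difference between diets (low minus high, ± SE) of Npr1 (left) and Edn1 (right) under each way of fitting, filled where the adjusted p is under 0.05. Npr1 is above 0 in every fit except with lane as a term (-0.41) and is filled only without low-NaCl library 1 (1.05), while Edn1 has an open point in every fit and lies on both sides of 0.

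As a check of the labelled cell type, markers of both main collecting duct cell types were abundant. Beside the calls given here, 1.7% of all tested genes rose and 1.7% fell. The principal cell markers summed to 4310 to 5800 CPM on the low-NaCl and 9409 to 11512 CPM on the high-NaCl diet, and 3 of 10 tested ones fell, among them the water channels Aqp2 and Aqp3 (log2 differences -1.28 and -1.27), with Avpr2 at -0.86 (adjusted p = 0.0713 by edgeR) and Aqp4 at 17 reads. They did not all move 1 way: of the 10 tested, 8 had a negative and 2 a positive log2 difference. The intercalated cell markers summed to 3172 to 6133 against 2023 to 2397 CPM, and 6 of 11 tested ones rose, among them Foxi1, Atp6v1g3 and Atp6v0d2 (1.40, 1.45 and 1.36), with Atp6v1b1 at 0.39 (adjusted p = 0.279 by edgeR). Inner medullary markers summed to 1574 to 2175 against 1022 to 1934 CPM, with no call (Krt19 0.86, Slc14a2 -0.57 and Fxyd2 0.25). Markers of the thick limb, macula densa and distal convoluted tubule summed to 596 to 736 against 392 to 492 CPM, and 2 of 7 tested ones rose, Slc12a1 and Avpr1a, with Cldn16 at 1.11 and Umod at 0.33 not called and Cldn10 not countable. Proximal tubule markers summed to 56.5 to 68.8 against 32.1 to 45.2 CPM, and 1 of 8 tested ones rose, Slc27a2, while Slc34a1 (1.04), Lrp2 (0.28), Cubn (0.10) and Slc5a2 (0.68) were not called. Libraries held 40101899 to 46861531 counted reads, with 20.5 to 21.8% mitochondrial on the low-NaCl and 21.9 to 29.9% on the high-NaCl diet. Except for the inner medullary list, the ranges of these sums did not overlap between the diets, and their part in the differences described next was not tested.

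Beyond the 10 genes, 98 other genes of the 4 pathways were listed, of which 97 were matched and 47 tested. Of these 4 rose and 1 fell, 10.6% against 3.4% of all tested genes. The lists were drawn up with earlier results of these data known. This share and those below therefore cannot show whether the pathways changed more than other genes. On the low-NaCl diet 34 of the 47 had a positive and 13 a negative log2 difference, with a median of 0.22 against -0.0019 over all genes. At an unadjusted p under 0.05 there were 16 of the 47, against 18.3% of all tested genes, and in 18 of the 47 the diets did not overlap, against 23.9%. The number that rose was 5 without low-NaCl library 1, 4 without high-NaCl library 2, and 1 or 2 without any other library. It was 0 with lane as a term and 0 without the libraries of over 25% mitochondrial counts, high-NaCl libraries 1 and 3.

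**Figure D4:**
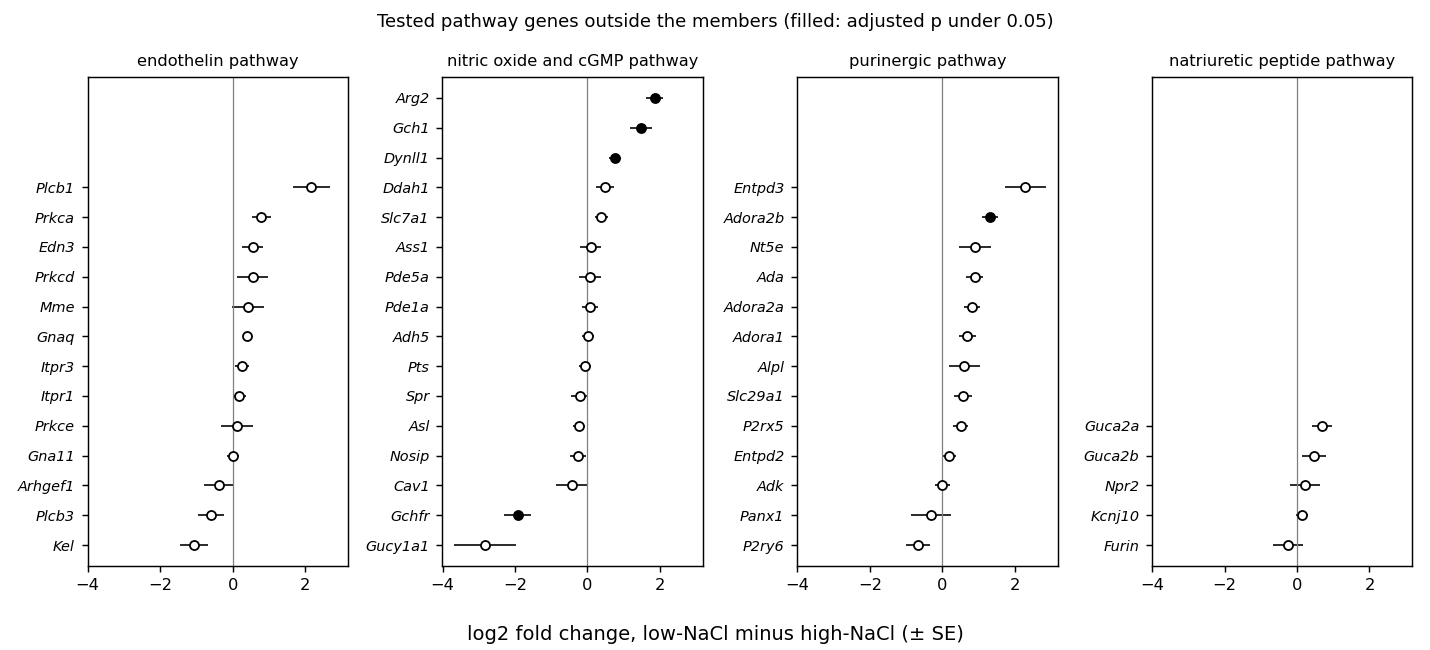
Points give the log2 difference between diets (low minus high, ± SE) of the 47 tested genes of the 4 pathways, filled where the adjusted p is under 0.05. The 5 filled points are Arg2, Gch1, Dynll1 and Gchfr of the nitric oxide pathway and Adora2b of the purinergic pathway, and 11 of 13 purinergic genes lie above 0.

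The nitric oxide and cyclic GMP pathway had 16 tested genes, of which 3 rose and 1 fell, with a median log2 difference of 0.04. Arg2 (chromosome 12, 79130777 to 79156301), mitochondrial arginase, which uses the same arginine as the synthases, measured 45.2, 79.7 and 51.0 CPM on the low-NaCl and 16.9, 18.3 and 13.5 CPM on the high-NaCl diet. It rose 3.61-fold, with a log2 difference of 1.85 ± 0.22 (adjusted p = 0.00658 by edgeR). All low-NaCl libraries lay above all high-NaCl ones, and the call held without each library in turn (adjusted p 0.00288 to 0.0331).

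Gch1 and Gchfr act on tetrahydrobiopterin, the cofactor that nitric oxide synthases require. Gch1 (chromosome 14, 47153895 to 47189413), GTP cyclohydrolase and the rate-limiting enzyme of its synthesis, measured 1.57, 1.94 and 1.72 CPM on the low-NaCl and 0.440, 0.631 and 0.798 CPM on the high-NaCl diet. It rose 2.78-fold (log2 difference 1.48 ± 0.31, adjusted p = 0.0346 by edgeR). Gchfr (chromosome 2, 119167773 to 119172390), the feedback regulator that binds and inhibits that enzyme, measured 7.95, 2.76 and 5.50 CPM on the low-NaCl and 30.0, 14.6 and 17.1 CPM on the high-NaCl diet. It fell 3.80-fold (log2 difference -1.93 ± 0.38, adjusted p = 0.0295 by edgeR). The enzyme and its inhibitor thus moved in opposite directions, and for each the diets did not overlap.

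The ratio of Gch1 to Gchfr per countable kb, chosen after the values were seen, was 0.0448, 0.160 and 0.0713 on the low-NaCl and 0.00333, 0.00987 and 0.0106 on the high-NaCl diet. In all libraries the inhibitor's transcript was the more abundant per countable kb. Dynll1 (chromosome 5, 115297110 to 115300999), a dynein light chain also known as a protein inhibitor of Nos1, measured 341, 318 and 368 CPM against 202, 232 and 171 CPM. It rose 1.70-fold (log2 difference 0.76 ± 0.16, adjusted p = 0.0326 by edgeR). As a light chain of motor complexes it has many partners besides Nos1.

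**Figure D5:**
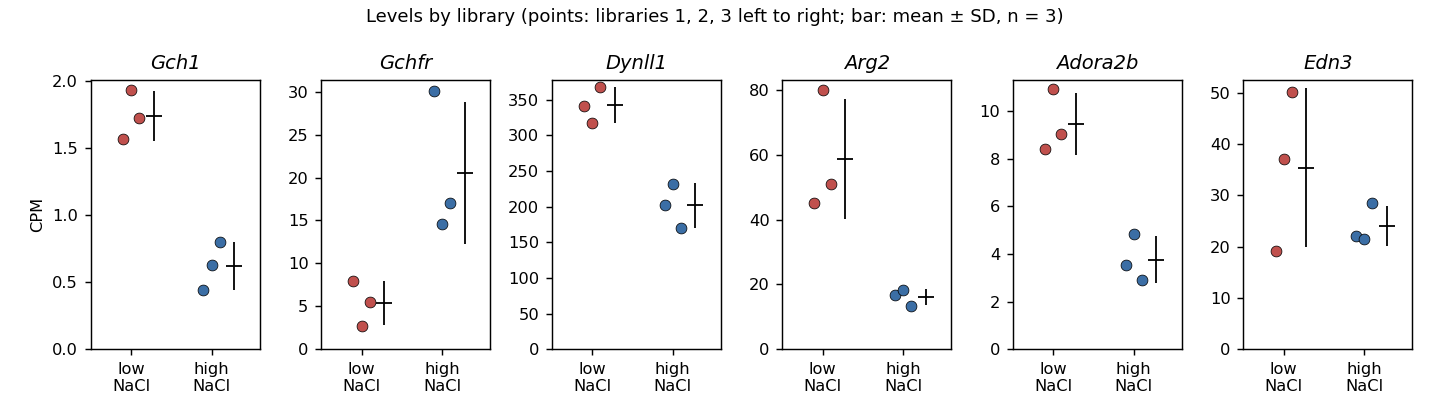
Points give CPM in libraries 1 to 3 of each diet (red low-NaCl, blue high-NaCl) and crosses the mean ± SD (n = 3), with an axis from 0 for each gene. The diets do not overlap for Gch1, Gchfr, Dynll1, Arg2 and Adora2b, and they overlap for Edn3.

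These calls depended on single libraries to different degrees. The Gch1 call ended without any library except low-NaCl library 1 (adjusted p 0.0506 to 0.151 by edgeR), that of Dynll1 without any except high-NaCl library 2 (0.0532 to 0.144), and that of Gchfr without any except library 1 of the low-NaCl and library 2 of the high-NaCl diet (0.0752 to 0.0836). With lane as a term no call remained, although log2 differences within lane 1 were of the same sign (Arg2 1.42, Gch1 1.83, Gchfr -1.92, Dynll1 0.76). All 4 calls also ended without the libraries of over 25% mitochondrial counts (Arg2 0.142, Gch1 0.156, Gchfr 0.2997, Dynll1 0.233), those of Gch1 (0.0635) and Dynll1 (0.0683) with total-count scaling, and that of Gchfr with no filter (0.0933).

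The other nitric oxide genes showed no call by edgeR. Gucy1a1, a subunit of soluble guanylate cyclase, measured 0.0248, 0.228 and 0 CPM on the low-NaCl and 0.770, 0.765 and 0.346 CPM on the high-NaCl diet, with a log2 difference of -2.83 ± 0.85 (adjusted p = 0.108 by edgeR). DESeq2 called it (-2.88, adjusted p = 0.0255). It is a gene of few reads, 92 in all, and its partner Gucy1b1 had 0.523% of its bases countable and no read. Adh5, which breaks down S-nitrosoglutathione, had 330 ± 19.9 against 327 ± 53.8 CPM, and Ddah1, which degrades an inhibitor of the synthases, had 51.0 ± 14.3 against 36.4 ± 9.18 CPM (adjusted p = 0.317 by edgeR). The cyclic GMP kinases Prkg1 and Prkg2 had 4 and 38 reads and were not tested.

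In the purinergic pathway 13 genes were tested, 1 rose and none fell, with a median log2 difference of 0.61 and 11 of 13 positive. Adora2b (chromosome 11, 62248984 to 62266453), a receptor for adenosine, to which extracellular ATP is broken down, measured 8.42, 10.9 and 9.03 CPM on the low-NaCl and 3.55, 4.86 and 2.90 CPM on the high-NaCl diet. It rose 2.50-fold (log2 difference 1.32 ± 0.23, adjusted p = 0.0193 by edgeR), and the diets did not overlap. The call ended without low-NaCl library 2, high-NaCl library 1 or high-NaCl library 3 (0.0647 to 0.0810) with lane as a term (0.333), with total-count scaling (0.0575) and without the libraries of over 25% mitochondrial counts (0.160). Within lane 1 its log2 difference was 1.25.

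In 7 of the 13 tested purinergic genes the diets did not overlap, against 23.9% of all tested genes. Besides Adora2b these were Entpd3, Ada, Adora2a, Adora1, Slc29a1 and P2ry6, which missed the threshold. Entpd3, an ectonucleotidase, measured 0.521 ± 0.182 against 0.106 ± 0.0704 CPM (log2 difference 2.29, adjusted p = 0.0621 by edgeR). Ada, adenosine deaminase, measured 2.74 ± 0.247 against 1.48 ± 0.278 CPM (log2 difference 0.89, adjusted p = 0.0765 by edgeR). Adora2a, another adenosine receptor, measured 5.87 ± 1.34 against 3.33 ± 0.511 CPM (log2 difference 0.82, adjusted p = 0.0944 by edgeR). DESeq2, which called 7.45% of its tested genes, called these 3. Adora1, a further adenosine receptor that was 14.2% countable, had a log2 difference of 0.69 (adjusted p = 0.160 by edgeR), and Slc29a1, a nucleoside transporter that was 15.1% countable, one of 0.57 (adjusted p = 0.279 by edgeR).

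Other receptors for ATP and related nucleotides could be counted to very different degrees, with P2ry1, P2ry10, P2ry12 and P2rx2 under 10% countable. P2rx5, an ATP-gated channel, had the highest level per countable kb of the listed P2X and P2Y genes (33.7 CPM per kb), at 105, 103 and 63.6 CPM against 74.7, 54.0 and 61.9 CPM (log2 difference 0.51, adjusted p = 0.221 by edgeR). P2ry6, a receptor for UDP, measured 0.678 ± 0.189 against 1.09 ± 0.153 CPM, with diets that did not overlap (log2 difference -0.68, adjusted p = 0.322 by edgeR). P2ry4 and P2ry13 were fully countable and had no read.

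The endothelin pathway had 13 tested genes and no call by edgeR, with a median log2 difference of 0.26 and 4 of 13 genes at an unadjusted p under 0.05, against 18.3% of all tested genes. Those were Plcb1, Gnaq, Prkca and Kel. Plcb1, a phospholipase C downstream of Gq-coupled receptors, measured 0.298, 0.387 and 0.519 CPM on the low-NaCl and 0.0825, 0.0956 and 0.0798 CPM on the high-NaCl diet (log2 difference 2.17 ± 0.51, adjusted p = 0.0531 by edgeR), from 62 reads on the 31.3% of its bases that were countable. Gnaq, a Gq alpha subunit, measured 51.6 ± 2.55 against 39.1 ± 2.55 CPM (log2 difference 0.40, adjusted p = 0.115 by edgeR). Prkca, a protein kinase C, measured 30.0 ± 8.03 against 17.3 ± 5.25 CPM (log2 difference 0.79, adjusted p = 0.136 by edgeR), and DESeq2 called it (adjusted p = 0.0371). Kel, a protease that can process an endothelin, had 0.340 ± 0.0545 against 0.710 ± 0.190 CPM (log2 difference -1.06, adjusted p = 0.187 by edgeR). In all 4, which were picked by p, the diets did not overlap. They did not overlap in 5 of the 13 tested genes of this list, against 23.9% of all tested genes.

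The most abundant endothelin transcript was that of endothelin-3, not endothelin-1. Edn3 (chromosome 2, 174760619 to 174784042), fully countable like Edn1 and named after its values were seen, measured 19.1, 37.1 and 50.1 CPM on the low-NaCl and 22.2, 21.5 and 28.6 CPM on the high-NaCl diet. Per countable kb its level exceeded that of Edn1 in all 6 libraries, by 7.31 ± 0.467 times on the low-NaCl and 4.78 ± 1.71 times on the high-NaCl diet. Its log2 difference of 0.56 ± 0.29 did not pass (adjusted p = 0.358 by edgeR), and it passed without low-NaCl library 1 (0.85, adjusted p = 0.0372). As for Npr1, low-NaCl library 1 was the lowest of its diet and the difference within lane 1 was negative (-0.21), and both the smooth muscle, pericyte and mesangial sums given above and the intercalated cell sums (3172, 4145 and 6133 CPM) run in the same order as Edn3 over the low-NaCl libraries. Within the muscle list Tagln follows that order and Acta2 does not. The proximal tubule sums (56.5, 62.6 and 68.8 CPM) and the macrophage sums (0.422, 0.660 and 0.778 CPM) follow it too. Over high-NaCl libraries 1 to 3 neither the muscle sums (23.7, 25.1 and 25.4 CPM) nor the intercalated cell sums (2397, 2023 and 2229 CPM) run in the order of Edn3. The part of these cells in the Edn3 value was not tested. Edn2, fully countable as well, had 12 reads.

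Of the 16 genes listed with the natriuretic peptide pathway, 5 were tested, among them the potassium channel Kcnj10, and none was called. Guca2a, which encodes guanylin, a peptide known to promote sodium excretion, measured 28.1, 30.1 and 55.9 CPM on the low-NaCl and 31.1, 19.0 and 20.7 CPM on the high-NaCl diet (log2 difference 0.69 ± 0.28, adjusted p = 0.227 by edgeR). Low-NaCl library 3 stood apart and the other values overlapped. Guca2b, uroguanylin, measured 1.01 ± 0.274 against 0.732 ± 0.111 CPM (adjusted p = 0.506 by edgeR). Kcnj10, a basolateral potassium channel, measured 389 ± 39.2 against 355 ± 46.7 CPM (adjusted p = 0.707), and Furin, a protease of precursor peptides that was 7.87% countable, 0.675 ± 0.236 against 0.811 ± 0.298 CPM (adjusted p = 0.797), both by edgeR. The ligands were scarce: Nppa and Nppc, fully countable, had 32 and 42 reads, and Nppb, 0.385% countable, had none. The clearance receptor Npr3 had no read and 2.44% of its bases countable, so its level relative to Npr1 is not known.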

How the data were processed

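RNA-seq counts of 6 libraries were used. The deposited values are raw counts per UCSC transcript of mm10, made by the authors with featureCounts 1.5.0-p3 on exons, with no strand or overlap option, per the file headers. FastQC, Subread and edgeR appear in the submitters' processing notes, and for the aligner the sources used here give no settings.

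The 59121 transcripts were matched to GENCODE vM21 genes of the same strand by identical introns (41303 transcripts, 72.1% of counts), or failing that by an exonic overlap of 50% or more (11080, 22.2%), which gave 24852 genes. The remaining 6738 (5.65%) entered library sizes only. The diets were compared with edgeR 4.0.16 under R 4.3.3 (TMM factors, filterByExpr by diet, robust glmQLFit, glmQLFTest, no covariates) and Benjamini-Hochberg adjustment over 10522 genes. The biological coefficient of variation was 21.6%. The SE is the absolute log2 difference divided by the square root of F. CPM used the same scaling, and means are given ± SD. Precision depends on the reads of each gene.

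No library duplicated another (chi-square divided by its degrees of freedom at least 34.6 within diets). The procedure was tested on simulated data with the same spread for all genes. It recovered 53.1% of the 2-fold and 99% of the 4-fold changes, and 5.03% of its calls were false. A 2-fold change in a single gene can therefore be missed. Alternatives used DESeq2 1.42.0, limma-voom (limma 3.58.1), other scalings, filters and matches, lane as a term, the replicate number as a block, and fewer libraries. Lanes were read from the file headers. Coordinates are GENCODE spans in mm10. The genes, pathway lists, marker lists and tests were chosen with earlier results of these data known. Genes named were the 10 studied, each called pathway gene or up to 4 per list by smallest p, the first 4 of each marker list, and called endothelial, muscle and macrophage markers. Named after their values were seen were Edn3, Gucy1a1, Ddah1, Adh5, Pts, Spr, P2rx5, P2ry6, Edn2, Adora1, Slc29a1, Plvap, Ehd3, Vwf, Emcn, Tek, Cnn1, Rgs5, Slc27a2, Avpr1a and the pathway genes given with reads only. For Edn1, the 3 genes most like it across libraries were named.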

Additional observations from a re-analysis of the deposited data

How the results depend on the processing

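Every test here rests on 3 libraries per diet, and genes with few countable bases or reads (Ednrb, Nos1, P2ry2, Nos2, Ednra) were not tested. Of the 5 tested genes of the group none was called higher or lower under any alternative but 1: leaving out single libraries gave 0 to 1 higher (Npr1 without low-NaCl library 1) and 0 lower. DESeq2 and limma-voom, which called 7.45% and 2.9% of all genes, called 0 of the 5, and 1 of the 5 had an unadjusted p under 0.05 by edgeR. Signs turned for Edn1 (-0.43 to 0.14 over omitted libraries, 0.14 with low-NaCl library 1 omitted and 0.13 with high-NaCl library 2 omitted), Ece1 (0.0351 with total-count scaling and 0.0403 without the libraries of over 25% mitochondrial counts), Nos3 (0.0214 without those libraries) and Npr1 (-0.41 with lane as a term). The cause was not tested. Per kb of all exonic bases the level of Ece1 was 11.7 in place of 20.2 CPM, since fewer than all its bases are countable.

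Of pathway genes outside the group, 4 were higher and 1 lower. Higher counts were 1 with total-count scaling, 8 by DESeq2, 7 with the replicate block, 0 with lane as a term, 0 without the libraries of over 25% mitochondrial counts and 1 to 5 without single libraries. Lower counts were 0 with no filter, 2 by DESeq2, 2 with the replicate block, 0 with lane as a term, 0 without the mitochondrial libraries and 0 to 1 without single libraries. Over all genes 179 were higher and 179 lower. These became 80 and 55 with total-count scaling, 392 and 418 by DESeq2, 461 and 440 with the replicate block, 1 and 2 with lane as a term, and 30 and 91 without the mitochondrial libraries, which leaves 1 high-NaCl library assumed to vary like the others. With no filter 274 were lower, and without single libraries 32 to 289 were higher and 36 to 252 lower. Lane as a term and fewer libraries leave fewer degrees of freedom by construction.

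The labels tie replicate numbers to nothing shared between the diets, and only the libraries numbered 1 share a lane. Deviations of same-numbered libraries correlated at 0.193, 0.272 and -0.0741, and library 3 did not correlate best with its own number. The replicate block changed no call among the 5 genes of the group (Npr1 0.72, adjusted p = 0.440 by edgeR) and added Entpd3, Gnaq, Gucy1a1 and Prkca.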

Other observations

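Genes that regenerate tetrahydrobiopterin were looked at after the values of Gch1 and Gchfr had been seen. They were Qdpr, dihydropteridine reductase, at 221 ± 20.3 against 208 ± 13.7 CPM (low-NaCl against high-NaCl, SD, n = 3), Pcbd1 at 568 ± 75.5 against 516 ± 59.7 CPM, and Pcbd2 at 59.5 ± 10.6 against 61.6 ± 8.53 CPM. None of the 3 passed (adjusted p 0.712 to 0.899 by edgeR), with log2 differences of 0.08 ± 0.14, 0.14 ± 0.16 and -0.05 ± 0.16. Of the enzymes after Gch1 in synthesis, Pts measured 201 ± 4.75 against 210 ± 45.2 CPM (adjusted p = 0.869 by edgeR) and Spr, 14.8% countable, 19.8 ± 2.44 against 23.1 ± 6.98 CPM (adjusted p = 0.660). In these libraries the calls of the cofactor's genes were on Gch1 and its regulator, and no test compared them with the others.

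The genes whose log2 CPM followed that of Edn1 most closely over the 6 libraries, among those averaging at least 1 in log2 CPM, were 4632415L05Rik (Pearson r = 0.996), Adgrg6, an adhesion receptor (0.988), and Map3k21, a kinase (0.971). They were picked as the highest of all such genes, and the 6 libraries are shared by all of them. Adgrg6 measured 8.32, 13.96 and 16.5 CPM on the low-NaCl and 11.4, 19.0 and 11.9 CPM on the high-NaCl diet, with low-NaCl library 1 lowest and high-NaCl library 2 highest, as for Edn1.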
